A study of Mus musculus with 9 samples.

Results

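A set of 10 genes that are strongly expressed in fat cells, among the 21498 gene symbols measured, was followed across the colon of 9 mice. They are the hormones Adipoq, Lep and Retn, the secreted protease Cfd, the lipid droplet proteins Plin1, Plin4 and Cidec, and the fatty acid and glycerol handling genes Fabp4, Lpl and Pck1. They were listed by symbol as adipocyte genes, but they were chosen by the differences in FPKM between the groups of these same mice as well, since the low values of several members in AOM/DSS mice were known. The differences of the 10 members between all 3 groups are therefore given as a description, without a test.

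White adipocytes store triglyceride in 1 large lipid droplet, which perilipins coat and Cidec helps to enlarge, and release fatty acids by lipolysis. They also secrete hormones such as adiponectin (Adipoq), leptin (Lep) and, in mice, resistin (Retn), together with complement factor D (Cfd, adipsin). In the intestine, adipocytes lie mainly in the mesenteric fat attached to the outer wall, and only sparsely in the submucosa. Some of the 10 genes are used by other cells as well. Pck1 is also a gluconeogenic enzyme of epithelial cells, Fabp4 is made by capillary endothelium and macrophages, Lpl by muscle and macrophages, and Plin4 by muscle. The other 6 (Adipoq, Lep, Retn, Cfd, Plin1 and Cidec) are known mainly from adipocytes and are named adipocyte-typical members in what follows. On GRCm38 the members lie on chromosomes 16 (Adipoq), 10 (Cfd), 7 (Plin1), 17 (Plin4), 3 (Fabp4) and 2 (Pck1), with Lep and Cidec far apart on chromosome 6 and Retn and Lpl far apart on chromosome 8.

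Colon RNA was sequenced from male mice of the outbred ICR strain, 3 per group, that were 5 weeks old at the start and were killed at the end of week 18. Control mice received neither treatment. AOM/DSS + IgG Ab mice received the carcinogen azoxymethane (AOM, 10 mg/kg, injected once into the peritoneum) and 3 cycles of dextran sulfate sodium (DSS) in drinking water (the first of 7 days at 2%, the later 2 of 5 days at 1.5%). They also received a control IgG antibody intravenously, at 1.5 mg/kg every 2 days during the DSS cycles. AOM/DSS + anti-S100a9 Ab mice received the same AOM and DSS with an antibody against S100a9, a calcium-binding protein of neutrophils and monocytes, at the same dose. The labels call the Control tissue normal colorectal mucosa and the tissue of both AOM/DSS groups colorectal adenocarcinoma, whereas the study's text in places speaks of mucosa for the anti-S100a9 Ab mice, so treatment and the kind of tissue taken cannot be told apart. No label tells how much of the outer wall or attached fat was included. In whole tissue, fewer adipocytes and less RNA per adipocyte cannot be told apart either.

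Values are FPKM (fragments per kilobase of transcript, scaled to the mapped fragments of the library), which sum to between 308377 and 408811 per mouse. The number of fragments behind them is unknown. Widely used genes were low in these files (Gapdh at most 0.755 FPKM, Rps18 at 0 in at least 1 mouse), so that a value of 0 is reported only as listed at 0. Markers of colon epithelium such as Epcam (584 to 890 FPKM) and Vil1 (114 to 179 FPKM) were high in all 9 mice. Groups were compared on log2(FPKM + 0.1), a scale that understates changes of low genes, and 9 of the 10 members passed the filter of at least 0.1 FPKM in at least 3 mice. Lep did not, and Retn passed through the 3 Control mice alone.

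The secreted products of adipocytes were found in all 3 Control mice and were close to 0 in most AOM/DSS mice. Adipoq, the hormone most specific to fat cells, was at 4.26, 16.9 and 2.99 FPKM in Control mice 1, 2 and 3. It was at 0, 1.23 and 0 FPKM in AOM/DSS + IgG Ab mice and at 0.0474, 0 and 0 FPKM with anti-S100a9 Ab. Every AOM/DSS mouse was thus below every Control mouse, and 4 of the 6 were listed at 0. Cfd, which cleaves complement factor B, was at 30.7, 133 and 31.5 FPKM in Control mice, which placed it among the highest members. It was at 0.0619, 12.4 and 0 FPKM in AOM/DSS + IgG Ab mice and at 1.16, 0.0944 and 0.156 FPKM with anti-S100a9 Ab. Only AOM/DSS + IgG Ab mouse 2 stood above 2 FPKM among the 6, and no AOM/DSS mouse reached the lowest Control mouse.

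Lep, the satiety hormone, was low everywhere, at 0.189, 1.34 and 0.0847 FPKM in Control mice. Among AOM/DSS mice it was listed at 0 in all but AOM/DSS + IgG Ab mouse 2, which had 0.0495 FPKM. Retn was at 0.433, 2.73 and 0.443 FPKM in Control mice, at 0, 0.0908 and 0.0539 FPKM in AOM/DSS + IgG Ab mice, and at 0, 0 and 0.0494 FPKM with anti-S100a9 Ab. For both hormones the Control mice lay above all AOM/DSS mice, at levels where a value of 0 may stand for few fragments.

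The lipid droplet proteins did not all follow this pattern. Plin1, the perilipin that guards the droplet of the white adipocyte against lipases, was at 0.628, 2.48 and 0.303 FPKM in Control mice. It was at 0, 0.148 and 0 FPKM in AOM/DSS + IgG Ab mice and at 0.00778, 0 and 0.00849 FPKM with anti-S100a9 Ab. Cidec, which moves lipid from smaller to larger droplets, was at 4.88, 16.4 and 3.43 FPKM in Control mice (8.22 ± 7.08, SD, n = 3). It was at 0.218, 1.18 and 1.25 FPKM with IgG Ab (0.881 ± 0.575, SD, n = 3) and at 0.500, 0.827 and 0.0812 FPKM with anti-S100a9 Ab (0.470 ± 0.374, SD, n = 3). Both genes separated the Control mice from all 6 AOM/DSS mice, and neither separated the AOM/DSS groups from each other. Cidec did not always run with the other adipocyte-typical members. It was at 1.25 FPKM in IgG Ab mouse 3, where Adipoq, Cfd, Lep and Plin1 were listed at 0. In anti-S100a9 Ab mouse 2 it was at 0.827 FPKM, where Adipoq, Lep, Plin1 and Retn were listed at 0. Plin4, a perilipin of nascent droplets that muscle also makes, was at 2.37, 7.02 and 3.19 FPKM in Control mice, at 0.481, 1.26 and 3.11 FPKM with IgG Ab and at 5.83, 6.92 and 2.95 FPKM with anti-S100a9 Ab. Its range overlapped between every pair of groups.

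The genes that handle fatty acids and glycerol were above 1 FPKM in all 9 mice, though Pck1 was at 2.49 FPKM in AOM/DSS + IgG Ab mouse 1. Fabp4, the fatty acid carrier of the adipocyte cytoplasm, was at 42.2, 108 and 39.5 FPKM in Control mice (63.1 ± 38.5, SD, n = 3). It was at 9.64, 31.3 and 37.7 FPKM with IgG Ab (26.2 ± 14.7, SD, n = 3) and at 35.1, 22.4 and 19.2 FPKM with anti-S100a9 Ab (25.6 ± 8.41, SD, n = 3). The highest AOM/DSS mouse was just below the lowest Control mouse. Lpl, the lipase that frees fatty acids from circulating lipoproteins, was at 3.83, 11.9 and 1.75 FPKM in Control mice, at 3.74, 4.72 and 8.79 FPKM with IgG Ab and at 2.18, 1.08 and 1.14 FPKM with anti-S100a9 Ab. The Control mice overlapped with both AOM/DSS groups, while all 3 anti-S100a9 Ab mice were below all 3 IgG Ab mice. Pck1, which feeds glycerol synthesis in adipocytes, was at 75.2, 68.0 and 49.9 FPKM in Control mice (64.4 ± 13.0, SD, n = 3), at 2.49, 22.8 and 19.996 FPKM with IgG Ab (15.1 ± 11.0, SD, n = 3) and at 33.9, 37.5 and 46.7 FPKM with anti-S100a9 Ab (39.4 ± 6.57, SD, n = 3). It was the only member whose 3 groups were fully separated, with the anti-S100a9 Ab mice in between.

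**Figure D1:**
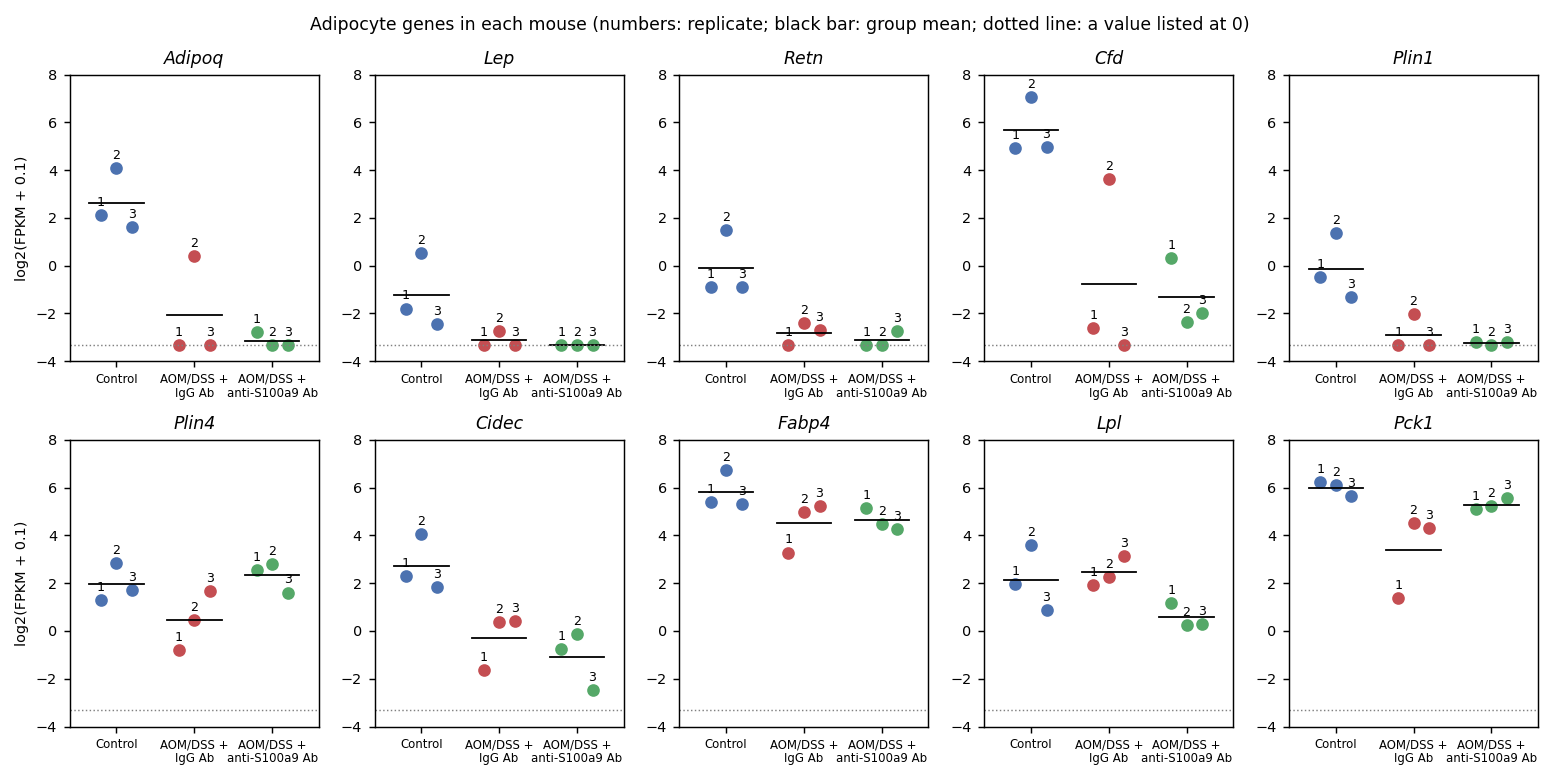
Level of the 10 adipocyte genes as log2(FPKM + 0.1) in each of 9 mice, by group. Numbers are replicates, black bars are group means, and the dotted line is the position of a value listed at 0. Adipoq, Lep, Retn, Cfd, Plin1 and Cidec were above every AOM/DSS mouse in all 3 Control mice, whereas Plin4 and Lpl overlapped between Control and AOM/DSS mice.

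Within each of the 3 Control mice, Cfd, Pck1 and Fabp4 were the 3 highest members on the FPKM scale and Lep was the lowest. Mean Control levels were 65.1 ± 58.9 FPKM for Cfd, 64.4 ± 13.0 for Pck1 and 63.1 ± 38.5 for Fabp4 (SD, n = 3), which do not differ beyond their spread. Cidec (8.22 ± 7.08), Adipoq (8.05 ± 7.68), Lpl (5.84 ± 5.39) and Plin4 (4.19 ± 2.48) formed a middle tier whose neighbours likewise overlapped. Retn (1.20 ± 1.32), Plin1 (1.14 ± 1.18) and Lep (0.538 ± 0.698) were lowest, each with an SD as large as its mean or larger.

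The fitted differences put numbers on these patterns. Between AOM/DSS + IgG Ab and Control mice the difference on the log2(FPKM + 0.1) scale was −6.43 (SE 1.72) for Cfd, −4.69 (SE 1.03) for Adipoq, −3.01 (SE 0.85) for Cidec, −2.75 (SE 0.64) for Plin1 and −2.71 (SE 0.61) for Retn. Pck1 differed by −2.58 (SE 0.73), Lep by −1.89 (SE 0.65), Plin4 by −1.51 (SE 0.66), Fabp4 by −1.32 (SE 0.57) and Lpl by 0.30 (SE 0.65). Of the 10 members 9 had a lower mean, and 8 had no overlap between the groups, against 10.2% of the 15278 genes tested that were lower with no overlap. The member median was −2.65, or −2.71 without Lep, beside a median of 0.09 over all genes tested. Since the members were picked with this contrast in view, nothing is read from these counts.

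AOM/DSS + anti-S100a9 Ab mice, compared with the same Control mice, showed values of like size for the adipocyte-typical members. The difference was −6.99 for Cfd, −5.75 for Adipoq, −3.83 for Cidec, −3.11 for Plin1 and −3.03 for Retn on the log2(FPKM + 0.1) scale. No fold is given for Lep, which was listed at 0 in all 3 anti-S100a9 Ab mice. Smaller differences were fitted for Lpl (−1.57), Fabp4 (−1.19) and Pck1 (−0.70), and Plin4 differed by 0.38. Here too 9 members had a lower mean and 8 did not overlap with Control, against 13.7% of all genes tested. The member median was −2.56 (−3.03 without Lep) beside 0.04 over all genes tested. The 2 comparisons share their Control mice, so their likeness is not independent.

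Between the AOM/DSS groups the members did not move together. Pck1 was higher with anti-S100a9 Ab in all 3 mice (difference 1.88), and Lpl was lower in all 3 (−1.87). Plin4 had as large a fitted difference as Pck1 (1.88), but its groups overlapped. The other 7 members overlapped too, with differences of −1.06 for Adipoq, −0.81 for Cidec, −0.56 for Cfd, −0.36 for Plin1, −0.33 for Retn and 0.13 for Fabp4, and with Lep at or near 0 in both groups. One member in 10 (Lpl) was thus lower with no overlap, against 28.5% of all genes tested. Pck1 was the 1 member higher with no overlap, as were 2819 of the 15278 genes tested. The member median of −0.34 became 0.13 without IgG Ab mouse 2, −0.58 without IgG Ab mouse 1, −0.21 without anti-S100a9 Ab mouse 2 and −0.22 without anti-S100a9 Ab mouse 3.

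**Figure D2:**
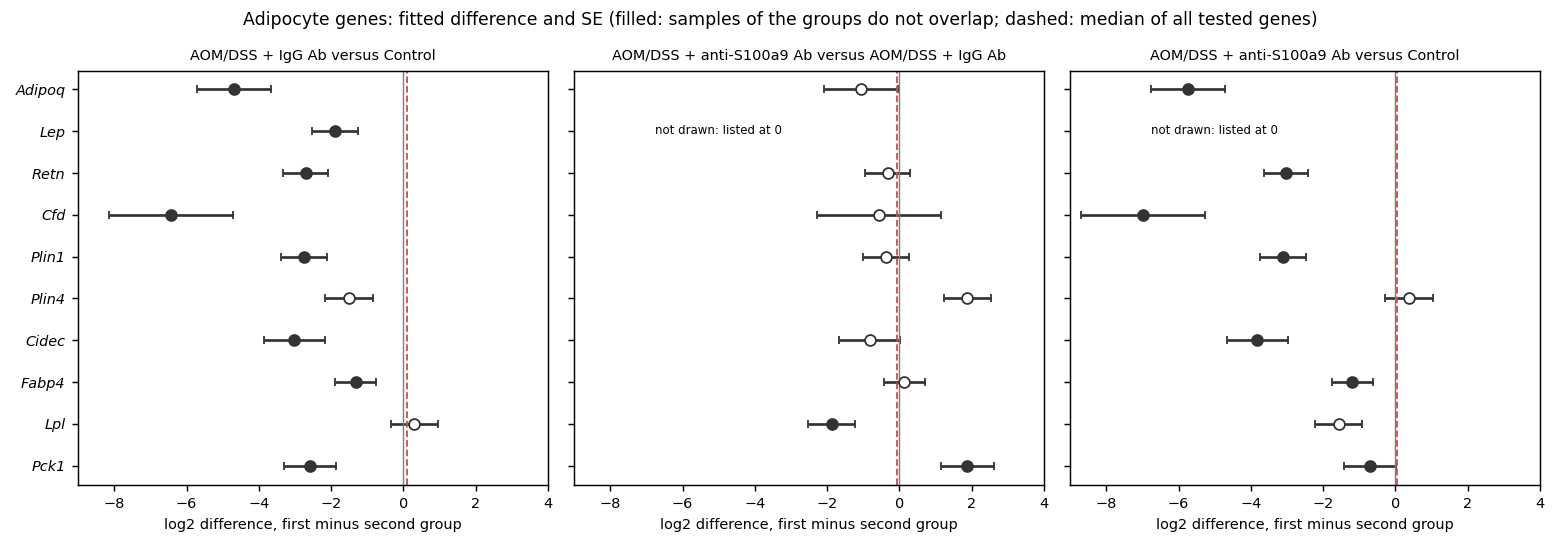
Fitted log2(FPKM + 0.1) difference of the adipocyte genes in the 3 comparisons, first minus second group, with its SE. Lep is drawn only for IgG Ab versus Control, since it was listed at 0 in all 3 anti-S100a9 Ab mice. Filled points are genes whose samples did not overlap between the groups, and the dashed line is the median of all genes tested. Cfd and Adipoq lay farthest below 0 in both comparisons with Control, and Pck1 and Lpl were the members without overlap between the AOM/DSS groups.

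Much of the spread within groups came from single mice. Control mouse 2 was the highest of the Control mice for 9 of the 10 members, all but Pck1, whereas it was the highest for 29.0% of all genes tested. Its level was 9.83 times the mean of the other 2 Control mice for Lep, 6.23 times for Retn, 5.34 times for Plin1, 4.66 times for Adipoq, and 4.28 times for both Cfd and Lpl. The ratio was 3.94 for Cidec, 2.63 for Fabp4, 2.52 for Plin4 and 1.09 for Pck1. Only 2.80% of all genes tested exceeded a ratio of 2 in this mouse. Control mouse 2 also had the lowest summed level of 7 B and T lymphocyte markers among Control mice (20.4 FPKM, against 108 and 176) and of 6 macrophage markers (425.9 FPKM, against 858 and 1149), and the part of tissue composition in its adipocyte values was not tested. Without this mouse the member medians were −1.95 (IgG Ab versus Control) and −1.72 (anti-S100a9 Ab versus Control), with 9 of 10 members still lower in both.

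AOM/DSS + IgG Ab mouse 2 was the other exception. It was the highest of its group for 6 members (Adipoq, Cfd, Lep, Plin1, Retn and Pck1), whereas it was the highest for 26.8% of all genes tested. It also carried most of the mesothelial transcription factor Wt1 (2.71 FPKM, against 0.212 FPKM or less in the other 8 mice). The sum of 6 mesothelial markers, Wt1 among them, did not set it apart, at 11.0 FPKM beside 11.1 and 14.8 FPKM in IgG Ab mice 1 and 3. Without Msln the sum was 5.54 FPKM, beside 0.578 and 1.01 FPKM. The part of mesothelium in the adipocyte values of IgG Ab mouse 2 was not tested. Levels relative to Adipoq were compared between this mouse and the Control mice. Cfd was 7.19, 7.88 and 10.5 times the FPKM of Adipoq in Control mice 1, 2 and 3 and 10.0 times in this mouse. Cidec was 1.14, 0.968 and 1.15 times Adipoq in Control mice and 0.955 times in this mouse, and Plin1 was 0.147, 0.147 and 0.101 times and 0.120 times. Over these 4 mice Adipoq itself ranged from 1.23 to 16.9 FPKM. The ratio of Retn was 0.102, 0.162 and 0.148 in Control mice and lower, at 0.0736, in IgG Ab mouse 2. That of Lep was 0.0442, 0.0795 and 0.0283 in Control mice and 0.0401 in IgG Ab mouse 2. Fabp4 was 9.90, 6.37 and 13.2 times Adipoq in Control mice but 25.4 times in IgG Ab mouse 2, and Lpl was 0.900, 0.708 and 0.584 times but 3.83 times. Pck1 was 17.6, 4.03 and 16.7 times Adipoq in Control mice and 18.5 times in IgG Ab mouse 2.

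**Figure D3:**
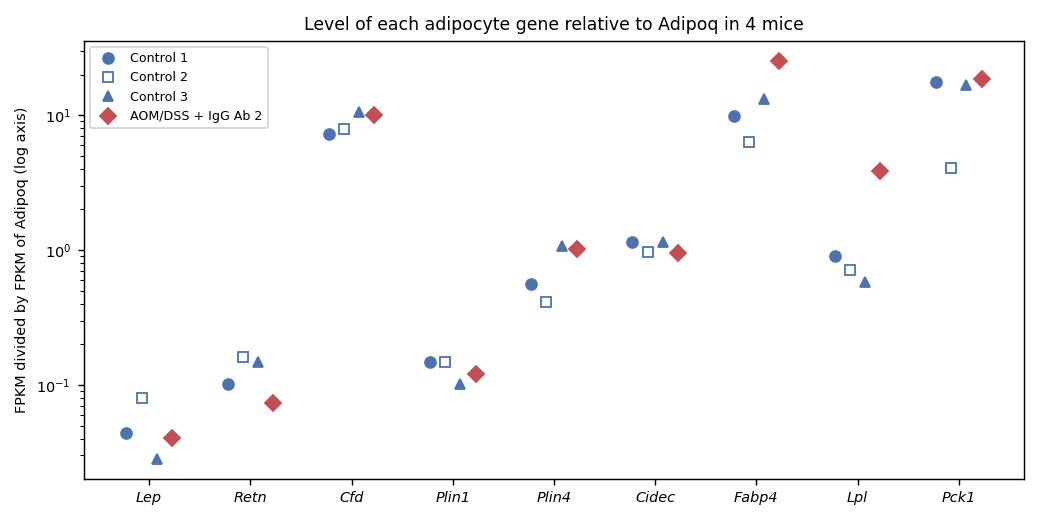
FPKM of 9 adipocyte genes divided by the FPKM of Adipoq in the 3 Control mice and AOM/DSS + IgG Ab mouse 2 (log axis). Cfd (7.19 to 10.5), Cidec (0.955 to 1.15) and Plin1 (0.101 to 0.147) had the narrowest ranges over the 4 mice, Retn (0.0736 to 0.162) and Lep (0.0283 to 0.0795) had wider ones, and Lpl (0.584 to 3.83) and Pck1 (4.03 to 18.5) the widest.

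Over the 9 mice the log2(FPKM + 0.1) of Adipoq ran with that of Cfd (Pearson r = 0.976), Plin1 (0.968), Retn (0.928), Cidec (0.895) and Lep (0.885). It ran less closely with Fabp4 (0.766), Pck1 (0.538), Lpl (0.458) and Plin4 (0.175). These coefficients describe 9 mice in 3 groups that differ in level, with Control mouse 2 at the top of most genes, and carry no test.

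RefSeq promoter windows (GRCm38.p6, from 250 bases before to 50 bases after the start site, shown 5′ to 3′ on the gene's strand) were given for 8 of the 10 members. They were searched on both strands for TTGCNNAA, the core bound by C/EBP factors, and for AGGTCA, the half-site of nuclear receptors, since C/EBP and PPARgamma drive adipocyte differentiation. The windows of Lep, Plin1 and Cidec hold TTGCNNAA, as do 10.8% of all 27025 promoter windows. It starts 55 bases before the start site in Lep, 187 and 58 bases before it in Plin1, and 198 bases before it in 1 of the 2 windows of Cidec. No member's window holds AGGTCA, which 16.0% of all windows do. Adipoq holds CCAAT at 3 places, a sequence in 37.9% of all windows. A match is a description of letters, not of binding. The windows with a C/EBP match and that of Adipoq, the gene to which the others were set in ratio, are shown, with TTGCNNAA in capitals.
Adipoq, chr16:23146286-23146585, + strand: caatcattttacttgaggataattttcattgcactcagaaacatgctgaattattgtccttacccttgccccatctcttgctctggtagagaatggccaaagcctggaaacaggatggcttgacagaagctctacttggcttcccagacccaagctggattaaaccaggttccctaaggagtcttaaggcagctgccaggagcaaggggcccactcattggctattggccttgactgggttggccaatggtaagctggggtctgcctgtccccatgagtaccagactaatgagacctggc
Lep, chr6:29059971-29060270, + strand: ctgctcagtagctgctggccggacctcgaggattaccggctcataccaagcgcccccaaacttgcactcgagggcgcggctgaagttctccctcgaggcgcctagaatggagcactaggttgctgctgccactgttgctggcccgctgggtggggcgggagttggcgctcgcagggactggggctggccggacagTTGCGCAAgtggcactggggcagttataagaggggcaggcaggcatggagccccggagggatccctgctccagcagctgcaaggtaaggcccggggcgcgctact
Plin1, chr7:79732727-79733026, − strand: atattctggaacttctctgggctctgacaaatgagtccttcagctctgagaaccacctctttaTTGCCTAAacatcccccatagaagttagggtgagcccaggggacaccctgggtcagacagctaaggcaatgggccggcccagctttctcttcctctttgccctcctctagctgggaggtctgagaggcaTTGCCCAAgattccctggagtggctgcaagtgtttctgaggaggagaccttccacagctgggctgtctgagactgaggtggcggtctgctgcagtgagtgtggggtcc
Cidec, chr6:113434715-113435014, − strand: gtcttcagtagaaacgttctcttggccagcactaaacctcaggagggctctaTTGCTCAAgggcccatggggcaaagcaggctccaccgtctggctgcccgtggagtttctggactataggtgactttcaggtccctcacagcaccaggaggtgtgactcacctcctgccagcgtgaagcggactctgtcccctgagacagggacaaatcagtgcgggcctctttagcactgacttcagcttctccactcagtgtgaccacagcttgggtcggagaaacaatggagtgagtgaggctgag

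Beside the members, 47 further adipocyte genes were read in the same fit, of which 45 passed the filter. Like several members, some of them are also used by other cells of the colon. The 47 genes, like the other lists below, were chosen with earlier results of these data known. Their counts and p-values are therefore a description and not an independent test. A gene was called when its unadjusted p was under 0.05 and its change over 2-fold, the study's thresholds, in limma's test over all 15278 genes. In AOM/DSS + IgG Ab versus Control mice, 6 of the 45 fell and 4 rose. That is 13.3% lower and 8.89% higher, beside 5.19% and 8.43% of all genes tested. By an adjusted p under 0.05 alone, 10 of the 45 were called, against 11.2% of all genes. Their median difference was −0.05, beside 0.09 over all genes tested.

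The strongest fall in this comparison was that of Car3, a carbonic anhydrase abundant in fat and muscle, which was at 35.4, 148 and 21.2 FPKM in Control mice. It was at 0.333, 12.7 and 0.297 FPKM in AOM/DSS + IgG Ab mice (log2 difference −5.21, SE 1.36, adjusted p = 0.043). As with Adipoq, Control mouse 2 was the highest (5.22 times the mean of the other Control mice) and IgG Ab mouse 2 stood above the other AOM/DSS mice. Adrb3, the lipolytic beta-3 adrenergic receptor, fell by 2.15 (adjusted p = 0.020), from 1.03, 1.89 and 1.65 FPKM to 0.0934, 0.245 and 0.579 FPKM. Hcar1, the lactate receptor that restrains lipolysis (−1.53, adjusted p = 0.018), Itih5 (−1.48, adjusted p = 0.029) and Pcx, the mitochondrial pyruvate carboxylase (−1.42, adjusted p = 0.029), fell as well. The fatty acid transporter Cd36 fell from 5.87, 14.2 and 3.98 FPKM to 0.968, 3.74 and 3.44 FPKM (−1.53, adjusted p = 0.12), a call that ended without Control mouse 2 or IgG Ab mouse 1.

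A further 4 genes rose in AOM/DSS + IgG Ab mice. They were the vascular peptide Apln (2.40, adjusted p = 0.022), Gpihbp1, which holds Lpl on capillary endothelium (1.65, adjusted p = 0.035), the droplet protein Plin5 (1.64, adjusted p = 0.043) and the transcription factor Cebpb (1.25, adjusted p = 0.091). The call of Cebpb ended without Control mouse 1, Control mouse 2 or IgG Ab mouse 3.

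In AOM/DSS + anti-S100a9 Ab versus Control mice, 5 of the 45 further genes (11.1%) fell and none rose, beside 0.864% of all genes that fell and 2.28% that rose. Since the genes were listed with earlier results known, nothing is read from these shares. None of the 45 passed an adjusted p of 0.05 in limma's test, while 7 had an unadjusted p under 0.05. Only 0.0131% of all genes passed the adjusted threshold in this comparison. The median difference of the further genes was −0.19, beside 0.04 over all genes tested. Car3 fell by 6.60 (adjusted p = 0.29), to 1.37, 0.159 and 0.218 FPKM. Mrap, a partner of the adrenocorticotropin receptor, fell by 3.31 (adjusted p = 0.30), from 0.758, 2.18 and 0.598 FPKM to 0.0395, 0 and 0 FPKM. Adig, a small membrane protein of adipocytes, fell by 3.14 (adjusted p = 0.30), from 0.549, 2.54 and 0.634 FPKM to 0.0829, 0 and 0 FPKM. Thrsp, a regulator of lipid synthesis, fell by 1.91 (adjusted p = 0.30) and Plin5 by 1.08 (adjusted p = 0.30), the call of Plin5 ending without Control mouse 2 or 3 or anti-S100a9 Ab mouse 2 or 3. Apart from Car3, the genes that fell with IgG Ab were not called here. Their differences from Control were 0.07 for Itih5, −0.03 for Hcar1, −0.38 for Pcx, −0.59 for Adrb3 and −0.60 for Cd36. Which cells their values came from was not tested.

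Adig and Mrap were not called in AOM/DSS + IgG Ab mice. Adig was at 0, 0.258 and 1.13 FPKM and Mrap at 0, 0.792 and 0.624 FPKM there, so that IgG Ab mouse 3, listed at 0 for Adipoq, Lep and Cfd, had both genes.

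Between the AOM/DSS groups 7 further genes (15.6%) were lower with anti-S100a9 Ab and 6 (13.3%) were higher, beside 8.38% and 7.64% of all genes tested. By an adjusted p under 0.05 alone, 12 of the 45 were called, against 21.1% of all genes. The genes that fell with anti-S100a9 Ab were Plin5 (−2.72, adjusted p = 0.0081), Apln (−2.23, adjusted p = 0.022), Angptl4 (−1.94, adjusted p = 0.12), Mrap (−1.84, adjusted p = 0.12), Cebpb (−1.74, adjusted p = 0.026), Gpihbp1 (−1.72, adjusted p = 0.023) and the glycerol-3-phosphate dehydrogenase Gpd1 (−1.51, adjusted p = 0.0055). Those that rose were Itih5 (1.56, adjusted p = 0.020), Adrb3 (1.55, adjusted p = 0.042), Hcar1 (1.50, adjusted p = 0.017), the glucose transporter Slc2a4 (1.19, adjusted p = 0.10), Pcx (1.05, adjusted p = 0.053) and Gpam (1.02, adjusted p = 0.094). The calls of Angptl4 and Mrap each ended without any 1 mouse other than Control mouse 2 or IgG Ab mouse 1. That of Gpam ended without any 1 AOM/DSS mouse other than IgG Ab mouse 2, that of Pcx without IgG Ab mouse 1 or anti-S100a9 Ab mouse 2 or 3, and that of Slc2a4 without Control mouse 3, IgG Ab mouse 1 or 2, or anti-S100a9 Ab mouse 1 or 2. The count of 13 was 8 without anti-S100a9 Ab mouse 2.

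Several central genes of fat metabolism, which other cells of the colon also use, were called in no comparison. The transcription factor Pparg, the master regulator of adipocyte differentiation, was at 10.5, 9.97 and 7.72 FPKM in Control mice, at 6.83, 9.99 and 12.7 FPKM with IgG Ab and at 8.70, 10.6 and 11.3 FPKM with anti-S100a9 Ab (differences from Control 0.03, SE 0.24, and 0.12, SE 0.24). Cebpa differed from Control by −0.22 and −0.17, the lipase Pnpla2 by 0.32 and −0.28, the hormone-sensitive lipase Lipe by −0.42 and −0.64, and the droplet protein Plin2 by −0.05 and −0.35. Fasn, the fatty acid synthase, was at 92.0, 46.2 and 24.1 FPKM in IgG Ab mice and between 31.4 and 35.2 FPKM in Control mice. Among the 5 lists, that of membrane and secreted genes had the lowest median in IgG Ab versus Control (−1.19, 4 of 12 lower and 1 higher), and the medians of the other 4 lay between −0.01 and 0.56.

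**Figure D4:**
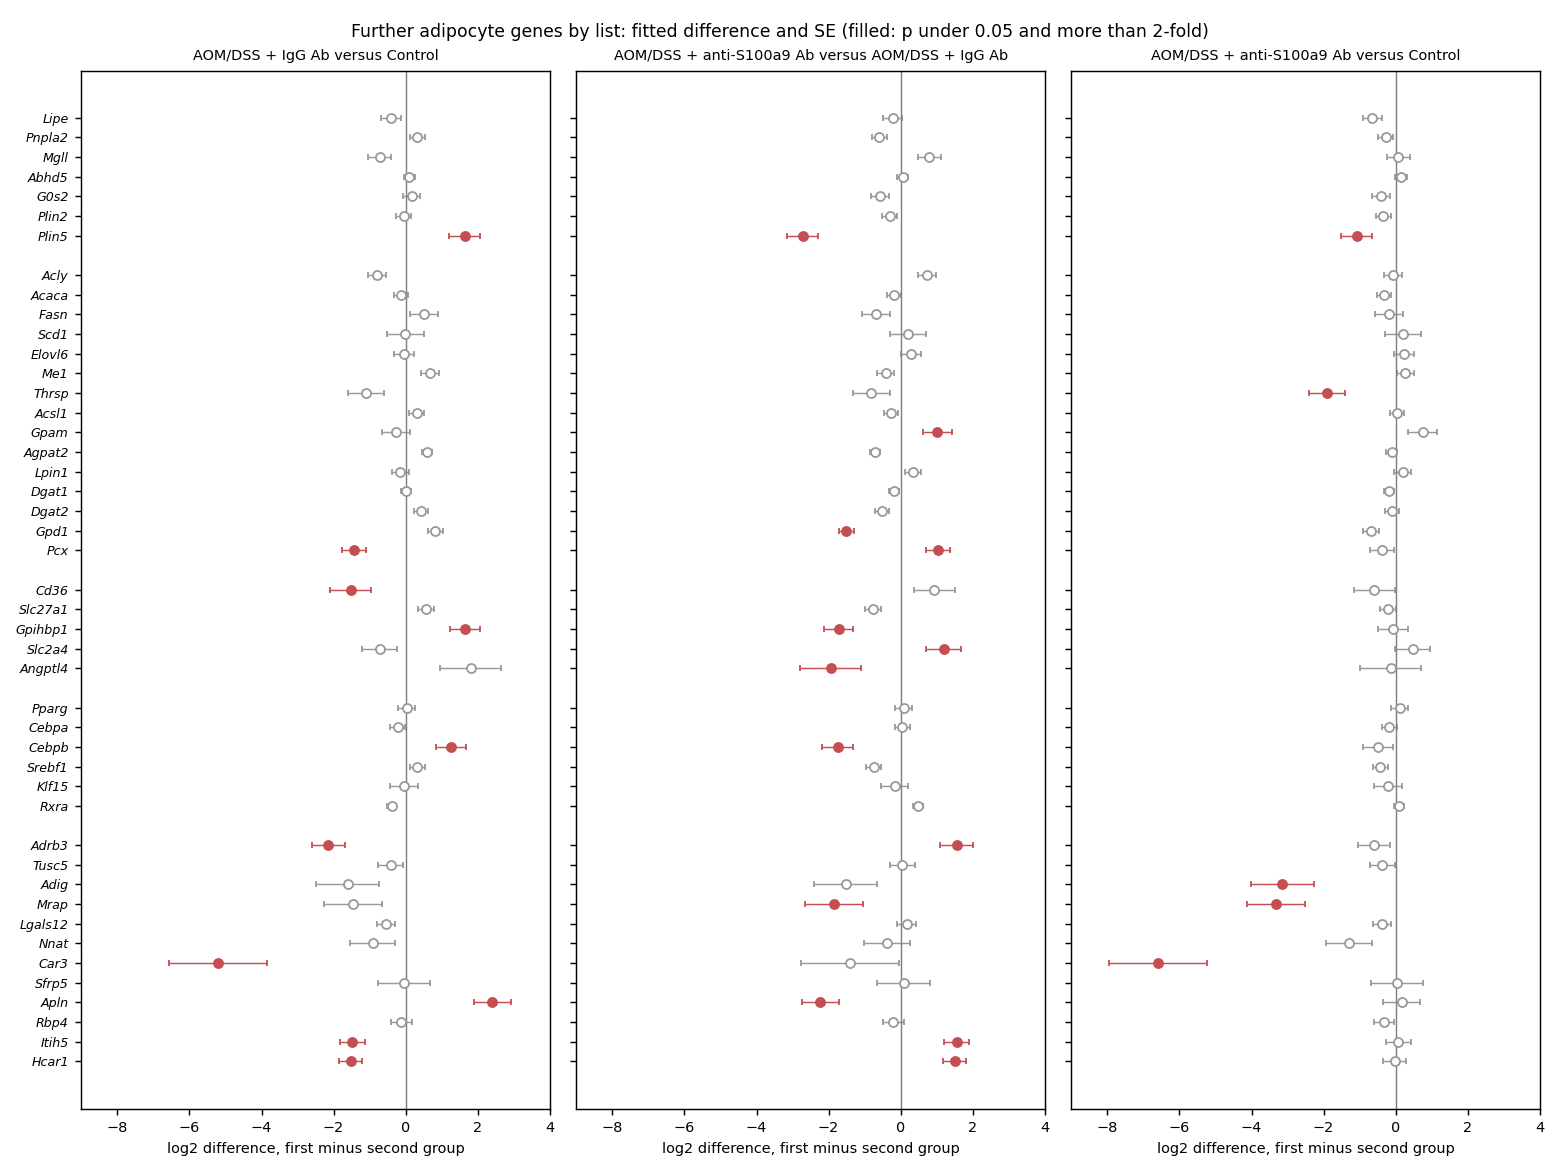
Fitted log2(FPKM + 0.1) difference and SE of the 45 further adipocyte genes tested, in blocks by list (lipid droplet and lipolysis, fatty acid and triglyceride synthesis, fatty acid and glucose uptake, transcription factors, membrane and secreted genes), first minus second group. Filled points were called (unadjusted p under 0.05 and over 2-fold). Car3 lay lowest in both comparisons with Control (−5.21 and −6.60), while most genes of synthesis and lipolysis lay near 0.

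Relatives of the members from the same gene families behaved in their own ways. Retnla, a resistin-like protein known from macrophages, fell by 6.44 in IgG Ab versus Control mice (adjusted p = 0.0069) and was 4.84 higher with anti-S100a9 Ab than with IgG Ab (adjusted p = 0.017). Retnlg, a resistin-like protein of neutrophils, rose by 4.89 (adjusted p = 0.022) and was lower with anti-S100a9 Ab than with IgG Ab (−4.39, adjusted p = 0.024). Retn itself was near 0 in both AOM/DSS groups. The intestinal carriers Fabp6 (−2.87, adjusted p = 0.049) and Fabp2 (−2.09, adjusted p = 0.12) and the endothelial lipase Lipg (−1.37, adjusted p = 0.050) also fell in IgG Ab versus Control mice. Of the 14 relatives tested 4 fell and 1 rose there, beside 5.19% and 8.43% of all genes tested. None was called in anti-S100a9 Ab versus Control, beside 0.864% of all genes that fell and 2.28% that rose. In anti-S100a9 Ab versus IgG Ab, 8.38% of all genes were called lower and 7.64% higher. The same shares stand beside the counts of every list that follows. With anti-S100a9 Ab versus IgG Ab, Lipg (1.53, adjusted p = 0.026) and Fabp2 (1.87, adjusted p = 0.11) were higher. Among the fits that left out 1 mouse, the call of Fabp2 against Control ended without Control mouse 3. In those fits its call against IgG Ab held only without IgG Ab mouse 2 or 3.

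Of the 6 receptors of adipokines and insulin, 1 was called in any comparison. Cdh13, an adiponectin-binding cadherin, was at 60.4, 9.30 and 14.7 FPKM in IgG Ab mice and between 6.29 and 8.58 FPKM in Control mice (1.41, adjusted p = 0.15), and its call ended without any 1 Control mouse, IgG Ab mouse 1 or anti-S100a9 Ab mouse 2. The adiponectin receptors Adipor1 (51.6 to 64.4 FPKM over the 9 mice) and Adipor2 (30.7 to 44.5 FPKM) and the leptin receptor Lepr (1.83 to 4.95 FPKM) were present in every mouse.

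Ucp1, the uncoupling protein that defines brown fat, was at most 0.0531 FPKM and Elovl3 at most 0.0735 FPKM. Of the 7 brown and beige genes tested, Cox7a1 (−1.69, adjusted p = 0.026), Cox8b (−2.81, adjusted p = 0.12) and Cpt1b (−1.003, adjusted p = 0.033), which muscle also uses, fell in IgG Ab versus Control mice and Dio2 rose (2.15, adjusted p = 0.022). Of all genes tested, 5.19% fell and 8.43% rose there. Cox7a1 also fell in anti-S100a9 Ab versus Control mice (−1.06, adjusted p = 0.30), and Dio2 was lower with anti-S100a9 Ab than with IgG Ab (−1.65, adjusted p = 0.037). The call of Cox8b ended without Control mouse 2 or 3 or IgG Ab mouse 1 or 2, that of Cpt1b without Control mouse 3 or IgG Ab mouse 1 or 3, and that of Cox7a1 with anti-S100a9 Ab without Control mouse 3 or anti-S100a9 Ab mouse 1 or 2. Of 7 genes of adipocyte progenitors, Dpp4 fell in IgG Ab versus Control mice (−1.14, adjusted p = 0.016), and Dpp4 (1.26, adjusted p = 0.012) and Cd34 (1.01, adjusted p = 0.055) were higher with anti-S100a9 Ab than with IgG Ab. The call of Cd34 ended without IgG Ab mouse 1 or anti-S100a9 Ab mouse 1 or 2. The summed level of the progenitor genes was 167.5 to 238 FPKM in Control, 283 to 471.5 FPKM in IgG Ab and 270.3 to 352 FPKM in anti-S100a9 Ab mice. Most of this sum was Ly6a, which was not called, and without it the sums were 31.7 to 37.7 FPKM in Control, 25.8 to 43.0 FPKM in IgG Ab and 41.9 to 52.4 FPKM in anti-S100a9 Ab mice. Whether the values of Dpp4, Cd34 and Ly6a came from progenitors or from other cells of the colon was not tested.

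Markers of the layers among which fat lies were read beside the members. The summed FPKM of 7 smooth muscle genes was 1832 to 2914 in Control, 530.1 to 3300 in IgG Ab and 2284 to 4133 in anti-S100a9 Ab mice. Of these genes 1 of 7 (Myh11, −1.46, adjusted p = 0.11) fell in IgG Ab versus Control mice and none was called in anti-S100a9 Ab versus Control. The call of Myh11 ended without Control mouse 2 or 3 or IgG Ab mouse 1 or 2. Against IgG Ab, anti-S100a9 Ab mice were higher for 5 of the 7, led by Myh11 (2.01, adjusted p = 0.033), Tagln (1.45, adjusted p = 0.081) and Cnn1 (1.51, adjusted p = 0.10), and the calls other than that of Myh11 ended without IgG Ab mouse 1 or 2 or anti-S100a9 Ab mouse 1 or 2. The 6 enteric neuron and glia markers summed to 9.13 to 24.1 FPKM in Control, 8.48 to 19.7 FPKM in IgG Ab and 14.9 to 20.5 FPKM in anti-S100a9 Ab mice. In IgG Ab versus Control 4 of 6 were lower (led by Sox10, −1.31, adjusted p = 0.078), calls that all ended without IgG Ab mouse 1. In anti-S100a9 Ab versus IgG Ab 5 of 6 were higher. Of all genes tested, 5.19% were called lower in the first of these comparisons and 7.64% higher in the second.

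The 6 mesothelial markers summed to 2.61 to 4.06 FPKM in Control, 11.0 to 14.8 FPKM in IgG Ab and 2.03 to 6.64 FPKM in anti-S100a9 Ab mice. Without Msln the sums were 1.06 to 2.07, 0.578 to 5.54 and 1.56 to 4.86 FPKM, which overlap. Msln rose in IgG Ab versus Control mice (2.57, adjusted p = 0.037) and was lower with anti-S100a9 Ab than with IgG Ab (−3.16, adjusted p = 0.016), whereas Gpm6a was higher with anti-S100a9 Ab (1.49, adjusted p = 0.017). Upk3b was highest, at 1.59 FPKM, in anti-S100a9 Ab mouse 3, in which Adipoq was listed at 0. None of 6 capillary endothelium markers was called in any comparison, with sums of 64.9 to 76.1 FPKM in Control, 49.2 to 156.7 FPKM in IgG Ab and 60.9 to 85.7 FPKM in anti-S100a9 Ab mice and Plvap and Pecam1 at the highest levels. No macrophage marker of 6 was called against Control. Their sums were 425.9 to 1149 FPKM in Control, 472 to 823 FPKM in IgG Ab and 839.9 to 1040 FPKM in anti-S100a9 Ab mice, and Adgre1 was higher in anti-S100a9 Ab than in IgG Ab mice (1.05, adjusted p = 0.070). Adgre1 lost its call without IgG Ab mouse 1 or 3 or anti-S100a9 Ab mouse 2 or 3. The 7 lymphocyte markers summed to 20.4 to 176 FPKM in Control, 12.0 to 88.4 FPKM in IgG Ab and 43.0 to 163 FPKM in anti-S100a9 Ab mice. None was called against Control, and the B cell genes Ms4a1, Cr2 and Cd79a were higher with anti-S100a9 Ab than with IgG Ab (2.23 to 3.64, adjusted p = 0.083 to 0.13), calls that each ended without mouse 1 or 3 of either AOM/DSS group. The part of these cell types in the values of Fabp4, Lpl, Plin4 and Pck1 was not tested.

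Of 6 skeletal muscle markers, Acta1 was listed at 0 and Mb was at most 0.0508 FPKM in all 9 mice, while Ckm was at 0.760 to 11.3 FPKM and fell in IgG Ab versus Control mice (−1.76, adjusted p = 0.13), a call that ended without Control mouse 2 or 3 or IgG Ab mouse 1 or 2. Ckm was higher with anti-S100a9 Ab than with IgG Ab (2.01, adjusted p = 0.067), a call that ended without mouse 1 or 2 of either AOM/DSS group. Mylpf, at 0.315 to 1.81 FPKM, was lower with anti-S100a9 Ab than with IgG Ab (−1.33, adjusted p = 0.043), and Tnnt3 reached 1.70 FPKM and was not called. The pancreatic genes Prss1 and Amy2a5 were listed at 0 in all 9 mice, and Cela1, at 97.7 to 281 FPKM, was the 1 gene of 8 on that list to pass the filter. Of 9 markers of colon epithelium, 3 fell in IgG Ab versus Control mice (Slc26a3 −4.03, adjusted p = 0.012, Aqp8 −3.81, adjusted p = 0.062, and Car1 −2.65, adjusted p = 0.033), Lgr5 rose (3.11, adjusted p = 0.032), and none was called in anti-S100a9 Ab versus Control. Against IgG Ab, 4 were higher with anti-S100a9 Ab, led by Slc26a3 (4.12, adjusted p = 0.012), and Lgr5 was lower (−3.84, adjusted p = 0.014). Of all genes tested, 5.19% fell and 8.43% rose in IgG Ab versus Control. In anti-S100a9 Ab versus IgG Ab, 7.64% were higher and 8.38% lower. Pck1 had the order Control, anti-S100a9 Ab, IgG Ab. As with Pck1, all 3 IgG Ab mice were below the other 6 mice for Slc26a3 and Aqp8. With differences of −4.03 and 4.12, Slc26a3 did not have Control above anti-S100a9 Ab, as Pck1 had. The part of epithelium in the values of Pck1 was not tested.

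Among 12544 other genes with a mean of at least 1 FPKM, the one whose log2(FPKM + 0.1) ran closest to the mean of the standardized members over the 9 mice was Cyp2e1 (r = 0.954), an ethanol-oxidizing enzyme that fat cells also make. It was at 6.07, 31.2 and 3.31 FPKM in Control mice, at 0.0419, 0.966 and 0.227 FPKM with IgG Ab and at 0.0687, 0.0350 and 0.0184 FPKM with anti-S100a9 Ab. As with Adipoq, Control mouse 2 was highest and every AOM/DSS mouse was below every Control mouse. The next in rank were Ankrd24 (0.908), Cela1 (0.906), Ccdc68 (0.905), Fam161a (0.905) and Car3 (0.904), followed by Ppp1r1b, Afg3l2, Igkv6-15 and Abhd17c (0.886 to 0.894). Some of these had a narrow range, such as Afg3l2 at 37.3 to 55.7 FPKM, whereas Cyp2e1 and Car3 ran from under 1 FPKM in AOM/DSS mice to 31.2 and 148 FPKM in Control mouse 2. After subtracting group means, the closest were Prrt2 (0.992), Scn7a (0.972), Fbxo18 (0.971), Cyp2e1 (0.961) and Tmem200b (0.961), with Pln, Dhrs9, Gng4, Tcf21 and Cd36 between 0.948 and 0.960. Cyp2e1 alone was in both lists of 10. These coefficients rest on 9 mice and were the highest of many, and they carry no test.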

How the data were processed

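Colon RNA of 9 mice (3 per group) was sequenced by the authors after extraction with a kit that keeps small RNA. They deposited a table for each mouse, in which 21544 rows carry a gene symbol and a value taken here as FPKM. No source used here writes the unit, so it was inferred from the size and decimals of the numbers. The submitters' notes name TopHat, Cufflinks, HTSeq, DESeq and GRCm38, with no role or version. Strandedness is not given in the sources used here. Rows with the same symbol were summed (21498 symbols), and the 15278 genes that reached 0.1 FPKM in 3 or more mice were kept.

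log2(FPKM + 0.1) was fitted with limma 3.58.1 in R 4.3.3 on all 9 mice by group (eBayes with trend, 8.87 degrees of freedom). P-values were adjusted by Benjamini-Hochberg over all genes. A gene was called at an unadjusted p under 0.05 and over 2-fold, the study's thresholds. The fit was tested on simulated data. Mice are the replicates, labelled as biological. Positions are from GENCODE M21 and promoters from RefSeq, both on GRCm38. Named were the 10 members, and from each other list the called genes (up to 6 by lowest p, otherwise 2 of the highest mean), with other listed genes added after their values were seen, and the 10 genes most like the members by 2 measures. The members and lists were chosen with earlier results of these data known. Alternatives were other pseudocounts, filters, scalings, fits, and leaving out each mouse.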

Additional observations from a re-analysis of the deposited data

How the results depend on the processing

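The count of further adipocyte genes called in AOM/DSS + anti-S100a9 Ab versus Control (5) was 0 by an adjusted p under 0.05 (7 at an unadjusted p under 0.05) and 2 with a filter of at least 1 FPKM in at least 3 mice, under which fewer low genes were tested. With a pseudocount of 1, the count for IgG Ab versus Control (10) was 7 and that for anti-S100a9 Ab versus IgG Ab (13) was 6. This larger constant ended the calls of Adrb3, Hcar1, Gpihbp1 and Plin5 in both comparisons. It also ended those of Gpam, Mrap and Pcx in anti-S100a9 Ab versus IgG Ab. The member median was −1.15 (IgG Ab versus Control) and −1.06 (anti-S100a9 Ab versus Control) and −0.05 (anti-S100a9 Ab versus IgG Ab) with a pseudocount of 1, and −3.62, −4.57 and −0.81 with a pseudocount of 0.01, as a smaller constant widens differences of low genes by construction. With the 1 FPKM filter, which 7 of the 10 members passed, it was −2.58, −1.57 and −0.56. Leaving out each mouse in turn gave counts of 10 to 12 (IgG Ab versus Control), 4 to 6 (anti-S100a9 Ab versus Control) and 8 to 13 (anti-S100a9 Ab versus IgG Ab). The member medians were then −3.03 to −1.95, −3.06 to −1.72 and −0.58 to 0.13, the last being above 0 only without IgG Ab mouse 2. The cause of that change was not tested. None of the 81 calls of listed genes turned direction under any alternative. Genes called for a large difference in these same mice were unlikely to turn, so nothing is read from this. Several calls were lost, as given above.

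With the replicate number as a block, the counts were 10, 5 and 12, beside 10, 5 and 13, and the member medians were −2.65, −2.56 and −0.34 as without it. Each number occurs once in every group, so the block leaves the fitted differences, and with them the medians, unchanged by construction. The block ended the calls of Slc2a4, Ms4a1 and Cd79a in anti-S100a9 Ab versus IgG Ab, and no other call of the listed genes. The numbers did not pair the mice, since deviations of same-numbered mice correlated between −0.187 and 0.249 and 2 of 9 mice were closest to their own number in both other groups. The depth of the files is unknown, so that levels under 0.1 FPKM, such as those of Lep and Retn in AOM/DSS mice, may not differ from 0.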
